A study of Rattus norvegicus with 2 samples.

Results

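The vascular endothelial growth factor (VEGF) family was followed here through its 5 ligand genes (Vegfa, Vegfb, Vegfc, Pgf and Figf, the rat symbol of Vegfd), its receptor tyrosine kinase genes (Flt1, Kdr and Flt4) and the neuropilin genes Nrp1 and Nrp2. Members were chosen by symbol, 10 in all, and 9 of them were found among the 16846 gene symbols of the table. Kdr was not analysed here, so nothing below speaks of the main signalling receptor of endothelium. The samples were ventricular cells of rats at postnatal day 0, freed with trypsin, left on bare plastic for 2 h to remove cells that attach quickly, and then plated; the protocol calls them cardiomyocytes, more than 90% pure. Strand-specific poly(A) RNA-seq gave 1 library per group, so differences could not be checked against replicates. The anti-miR library came from cultures kept for 7 days with an AAV2/9 vector carrying shRNAs against miR-99/100 and Let-7 (anti-Let-7a/c in the protocol). The control library came from cultures also listed at 7 days, described by one label as given empty AAV and by another as mock-transduced. The labels do not say how many animals were pooled.

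VEGF ligands are secreted dimers. Vegfa binds the receptors Flt1 (VEGFR-1) and Kdr (VEGFR-2) and drives vessel sprouting and permeability, Vegfb and Pgf bind Flt1, and Vegfc and Vegfd act through Flt4 (VEGFR-3) on lymphatic vessels. Neuropilins are co-receptors without a kinase that take up VEGF ligands as well as class 3 semaphorins. In the heart, Vegfa and Vegfb are made largely by cells other than endothelium, while the kinase receptors sit mainly on endothelial cells, and Flt1 also marks monocytes and macrophages.

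The treatment was aimed at 2 miRNA families, and their mature sequences are shown because the seed defines which transcripts they can pair with. Sequences are from RefSeq (build GRCr8), written 5′ to 3′, with the seed (bases 2 to 8) in capitals.
rno-let-7a-5p: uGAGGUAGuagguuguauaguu
rno-let-7c-5p: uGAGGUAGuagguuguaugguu
rno-miR-99b-5p: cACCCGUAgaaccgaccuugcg
rno-miR-100-5p: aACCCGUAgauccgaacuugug
The let-7 miRNAs share the seed GAGGUAG, and miR-99b and miR-100 share the seed ACCCGUA. Whether transcripts of the VEGF genes hold sites for these seeds was not analysed here.

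The libraries held 16031780 (control) and 14815846 (anti-miR) reads on genes. Levels are reads per 1000000 reads on genes (RPM) or, where genes are compared with each other, RPM per kilobase of the listed transcript (RPKM), always with the control first. Intervals are exact 95% intervals of counting error and say nothing of the spread between cultures. Among marker genes, fibroblast and macrophage transcripts were abundant, with summed levels of 102430 and 103871 RPM over 10 fibroblast markers and 6935 and 7567 RPM over 10 macrophage markers. The 10 cardiomyocyte markers came to 250 and 285 RPM, and Myh6, Ryr2 and Tnni3 were at 0 reads in the control, although Tnnt2, of cardiac troponin T, had 147 and 161 RPM. Most defining transcripts of the labelled cell type were thus scarce beside those of fibroblasts and macrophages. Endothelial markers came to less, 61.4 and 84.9 RPM. These sums are not per length. Per length, Tnnt2 was the highest cardiomyocyte marker (136 and 149 RPKM), above the fibroblast marker Pdgfra (32.6 and 33.5 RPKM). It stood far below Col1a1, the highest fibroblast marker, at 8512 and 8676 RPKM. In such mixed cultures fewer cells of a type and less RNA per cell cannot be told apart.

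All 9 measured members lay above a floor of 1 RPM (mean of both libraries). Flt1 and Figf exceeded the control by 1.5-fold or more, 0 members fell short of it by that factor, and 7 lay between. Under each of 3 other scalings Vegfb joined as 1 member lower. Of all 10365 genes over that floor, 10.8% passed the 1.5-fold rule upward and 8.56% downward. No member reached 2-fold, a size passed upward by 4.85% and downward by 3.56% of genes. The median log2 ratio of the members was −0.03, beside 0.03 over all genes. The members' reads together made up 633 and 611 RPM, a ratio of 0.966 (0.939 to 0.994). Of the 9 members, 8 lay within the spread of genes of like level, described below, and Flt1 was the exception.

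**Figure D1:**
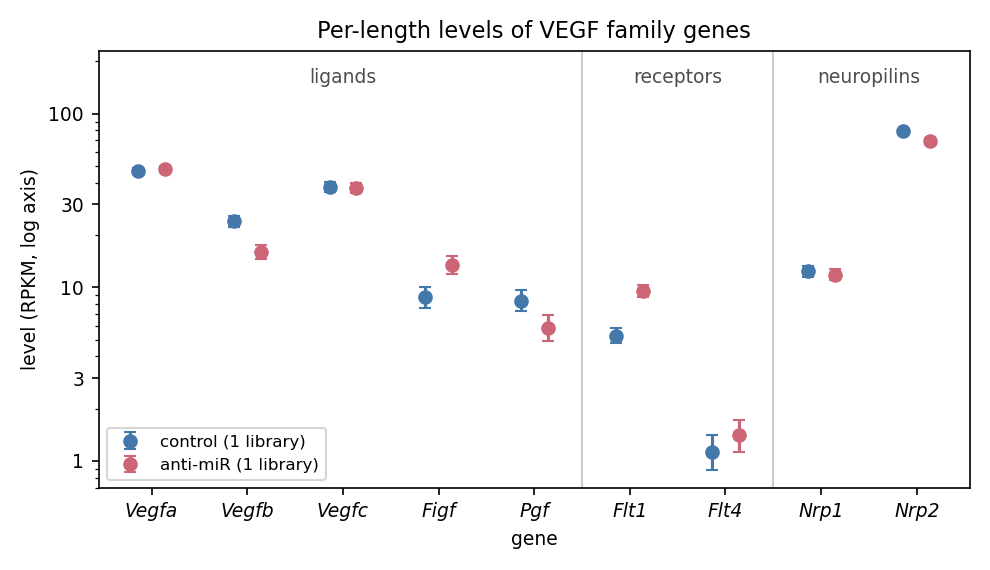
RPKM of each measured gene (log axis) in the control (blue) and anti-miR (red) library, with bars for the exact 95% Poisson counting interval. Nrp2, Vegfa and Vegfc lead in both libraries, Flt4 is lowest, and Flt1 shows the widest gap between the libraries, 5.25 against 9.55 RPKM.

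Vegfa, the ligand of vessel growth that hypoxia induces, was the most abundant ligand. Its gene lies on chromosome 9 (build rn4, 10520730 to 10536070, plus strand), and it had 2641 and 2499 reads. Per length this was 46.6 RPKM (44.8 to 48.4) and 47.7 RPKM (45.9 to 49.6), at percentiles 82.6 and 83.2 of all genes above the floor. The intervals overlap, and the ratio of 1.02 (0.969 to 1.08) includes 1.

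Vegfc, a ligand of lymphatic growth (chromosome 16, 40624435 to 40739692, minus strand), followed with 945 and 858 reads, or 37.8 and 37.1 RPKM. Its ratio was 0.982 (0.895 to 1.08), an interval that includes 1. Its relative Figf (chromosome X, 50830612 to 50864445, minus strand) had 208 and 296 reads, or 8.73 RPKM (7.58 to 10.0) and 13.4 RPKM (11.96 to 15.1). The intervals do not overlap, and the ratio was 1.54 (1.29 to 1.85). So the genes of the ligands that share Flt4 differed unlike each other, one within counting error and one not. For Figf the log2 ratio of 0.62 nonetheless lay inside −0.82 to 0.93, the range that held the central 95% of the 500 genes closest to it in level, called the like-level range below.

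Vegfb, a Flt1 ligand linked to heart muscle and fatty acid handling (chromosome 1, 209657647 to 209661271, minus strand), was lower in the anti-miR library. It had 684 and 422 reads, or 24.0 RPKM (22.2 to 25.8) and 16.0 RPKM (14.5 to 17.6). The ratio of 0.668 (0.590 to 0.755) gave the lowest log2 ratio of the family, −0.58. This lay just short of the 1.5-fold rule, which Figf just passed and which Vegfb passed under 3 other scalings, and inside the like-level range of −0.65 to 0.67. Of genes above the floor, 8.59% had a lower log2 ratio.

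Pgf, placental growth factor, the other ligand that binds only Flt1 among the kinase receptors (chromosome 6, 109215540 to 109226122, minus strand), was lower as well. It had 209 and 134 reads, or 8.39 RPKM (7.29 to 9.61) and 5.82 RPKM (4.88 to 6.89). The ratio was 0.694 (0.554 to 0.866) and the log2 ratio of −0.52 lay inside a like-level range of −1.01 to 1.30. Neither Vegfb nor Pgf passed the 1.5-fold rule as reported.

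In these libraries the ligands differed more in their shares than in their sum. Together the 5 ligand genes had 292 and 284 RPM, a ratio of 0.972 (0.932 to 1.01). Vegfa made up 56.3% of ligand reads (exact binomial interval 54.9 to 57.8) and then 59.4% (57.9 to 60.9). Vegfb went from 14.6% (13.6 to 15.6) to 10.03% (9.13 to 10.97), and Pgf from 4.46% (3.89 to 5.09) to 3.18% (2.67 to 3.76). Figf, by contrast, had 4.44% (3.87 to 5.07) and 7.03% (6.28 to 7.85), and Vegfc 20.2% and 20.4%. Figf and Pgf thus stood side by side in the control, and Figf stood above Pgf in the anti-miR library.

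**Figure D2:**
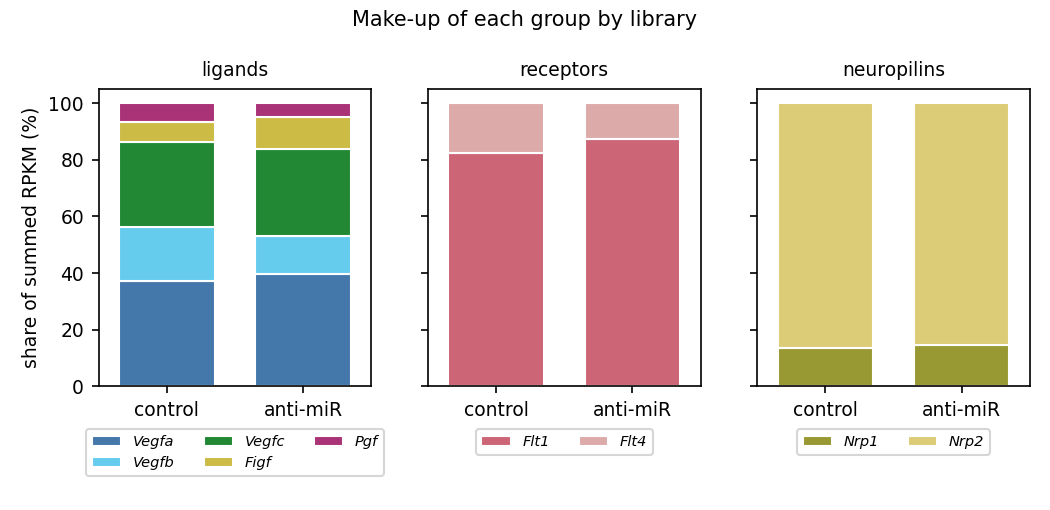
Share of the summed RPKM (%) of each group of genes that each gene makes up, in the control and anti-miR library (1 each). Vegfb shrinks from 19.1% to 13.3% of the ligands and Figf grows from 6.96% to 11.2%, while Nrp2 stays near 86% of the neuropilins, at 86.5% and 85.5%.

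Flt1 had the highest ratio of the family. The gene (chromosome 12, 7858092 to 8035966, plus strand) encodes a receptor that binds Vegfa tightly but signals weakly, and a secreted form of it traps ligand. It had 396 and 665 reads, or 5.25 RPKM (4.75 to 5.80) and 9.55 RPKM (8.84 to 10.3). The ratio was 1.82 (1.60 to 2.06) and the log2 ratio 0.86, at percentile 93.9 of all genes above the floor. Flt1 was the 1 member outside its like-level range, −0.65 to 0.65, as were 5.26% of all genes above the floor. The table keeps 1 transcript per gene, so the membrane and secreted forms of Flt1 were not told apart.

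Flt4, the receptor of Vegfc and Vegfd (chromosome 10, 35071002 to 35112006, plus strand), was the lowest member, with 78 and 90 reads. This was 1.12 RPKM (0.889 to 1.40) and 1.40 RPKM (1.13 to 1.73), at percentiles 6.70 and 7.54 of all genes above the floor. The intervals overlap and the ratio of 1.25 (0.912 to 1.71) includes 1, so at this depth no difference could be detected. Genes of its level spread widely between the libraries, with a like-level range of −1.67 to 1.77, wider than the counting interval of Flt4 itself.

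The 2 receptor genes together had 29.6 and 51.0 RPM, a ratio of 1.72 (1.53 to 1.94), of which Flt1 supplied 83.5% (79.9 to 86.8) and 88.1% (85.6 to 90.3) of reads. Per length, Vegfa stood 8.87-fold above Flt1 in the control and 5.00-fold above it in the anti-miR library. The 3 Flt1 ligand genes Vegfa, Vegfb and Pgf summed to 15.0 and 7.28 times the level of Flt1, and Vegfc and Figf to 41.4 and 36.0 times that of Flt4. In both libraries, then, ligand transcripts far outnumbered those of the receptors measured.

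The promoters of the members with the highest and the lowest ratio are shown for reference (RefSeq, build GRCr8, 250 bases before to 50 after the annotated start). For Flt1 (chr12:12333180-12333479, plus strand) capitals mark TGACGTCA, the cyclic AMP response element, at positions −124 to −117 from the start, the TATA box TATAAA at −75 to −70, and 3 GC boxes (GGGCGG or its reverse complement). For Vegfb (chr1:213607103-213607402, minus strand) capitals mark GC boxes alone; there are 4, of which 2 adjoin without overlap.
Flt1: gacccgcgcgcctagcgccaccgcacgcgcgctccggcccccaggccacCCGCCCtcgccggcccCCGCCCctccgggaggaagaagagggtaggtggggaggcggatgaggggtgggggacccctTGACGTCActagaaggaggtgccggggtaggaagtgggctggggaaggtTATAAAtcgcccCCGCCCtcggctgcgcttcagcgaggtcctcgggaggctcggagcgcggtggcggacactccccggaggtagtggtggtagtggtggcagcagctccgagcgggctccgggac
Vegfb: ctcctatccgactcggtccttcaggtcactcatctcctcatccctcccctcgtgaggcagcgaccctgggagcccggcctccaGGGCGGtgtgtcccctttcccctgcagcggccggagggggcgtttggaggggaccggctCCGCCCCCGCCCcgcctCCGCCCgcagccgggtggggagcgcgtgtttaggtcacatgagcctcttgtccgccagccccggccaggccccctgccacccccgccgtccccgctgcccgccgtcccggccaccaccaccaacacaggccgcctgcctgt
Searched on both strands of 33469 promoters of that length, TGACGTCA was found in 1.83%, TATAAA in 14.2% and GGGCGG in 33.1%. Among the members, TGACGTCA was found in the window of Flt1 alone, TATAAA in those of Flt1 and Figf, and GC boxes in those of 6 of the 9 members (Vegfa, Vegfb, Vegfc, Pgf, Flt1 and Flt4). Vegfa has a second annotated start, whose window held no GC box. The hypoxia response core ACGTG (19.3% of promoters) and the AP-1 site TGANTCA (7.33%) were also searched, and no member window held either. Sequence farther than 250 bases before the start was not searched, so sites there are not excluded. These matches describe letters, and the motifs were chosen with the sequences in view.

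Nrp2 was the most abundant member of the family. The gene (chromosome 9, 61348529 to 61460457, plus strand) encodes the neuropilin that pairs with Flt4 and binds Vegfc and class 3 semaphorins. It had 4224 and 3421 reads, or 79.3 RPKM (76.9 to 81.7) and 69.5 RPKM (67.2 to 71.9), at percentiles 90.6 and 89.0. The ratio was 0.876 (0.837 to 0.917), so with this many reads a difference of this small size lies outside counting error. Its log2 ratio of −0.19 was well within the like-level range of −0.34 to 0.36.

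Nrp1, the co-receptor that strengthens signalling of Vegfa (chromosome 19, 58332004 to 58487683, plus strand), had 757 and 669 reads. This was 12.4 RPKM (11.5 to 13.3) and 11.8 RPKM (10.9 to 12.8), with overlapping intervals and a ratio of 0.956 (0.861 to 1.06). Per length, Nrp2 exceeded Nrp1 6.41-fold in the control and 5.88-fold in the anti-miR library. Nrp2 held 84.8% (83.8 to 85.8) and 83.6% (82.5 to 84.8) of neuropilin reads, shares whose intervals overlap.

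Ordered by RPKM, the control ran Nrp2, Vegfa, Vegfc, Vegfb, Nrp1, Figf, Pgf, Flt1 and Flt4, from 79.3 down to 1.12. All neighbours differed beyond counting error except Figf and Pgf, whose ratio was 1.04 (0.855 to 1.27). In the anti-miR library Figf moved ahead of Nrp1 and Flt1 ahead of Pgf. There the 1 pair of neighbours within counting error was Figf and Nrp1, at 1.14 (0.988 to 1.31). The other 5 members held the same rank in both libraries.

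**Figure D3:**
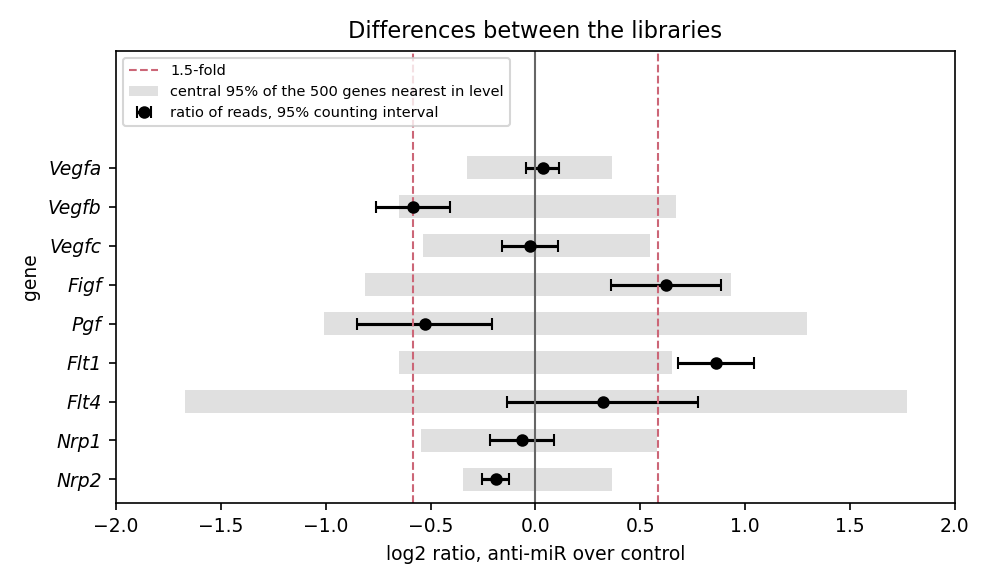
Log2 ratio of reads, anti-miR over control, of each member (points) with its exact 95% counting interval, the central 95% of the 500 genes nearest in level (grey) and 1.5-fold (dashed). Flt1, at 0.86, is the 1 point outside its grey range, and Vegfa, Vegfc, Flt4 and Nrp1 have intervals across 0.

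Counting error alone is a weak yardstick in these libraries. By an exact binomial test on the reads, Benjamini-Hochberg adjusted over all genes, 5 of the 9 members differed: Flt1 and Figf upward, and Vegfb, Pgf and Nrp2 downward. The same test called 55% of genes above the floor, 30.1% upward and 24.9% downward, and it compares these libraries, not the conditions. The members' share is therefore near the background.

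**Figure D4:**
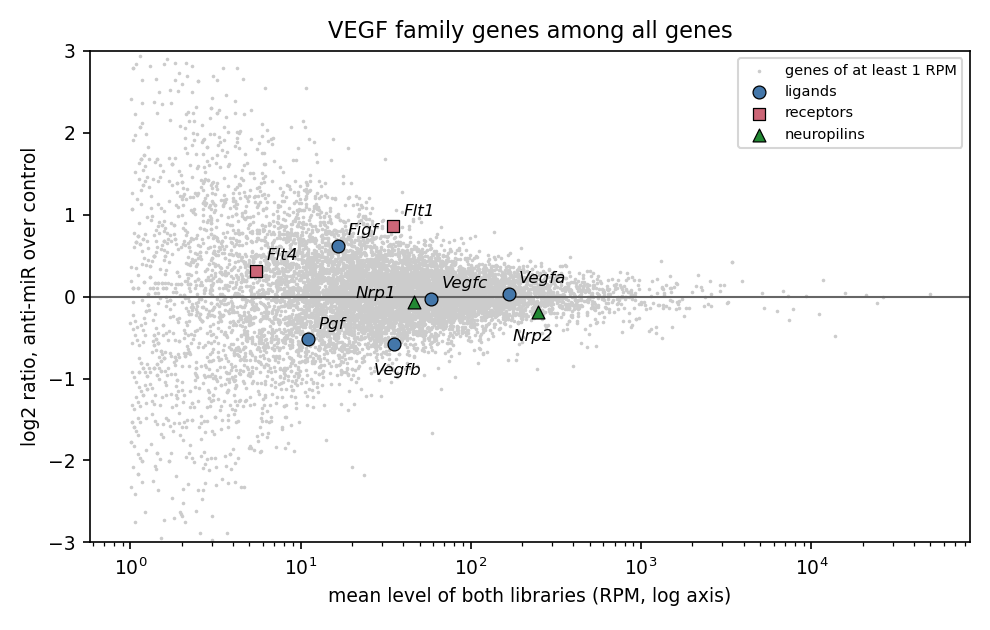
Log2 ratio, anti-miR over control, against mean level (RPM, log axis) for genes above the floor (grey, 110 beyond the plotted range of 3 in either direction) and for ligands (circles), receptors (squares) and neuropilins (triangles). Flt1 lies at the upper edge of genes of its level and Vegfb near the lower edge.

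Beside the Flt1 difference stand the markers of cells that carry kinase receptors. Of 14 endothelial markers 13 were in the table and 9 above the floor. Of the 9, 4 passed the 1.5-fold rule upward and 2 downward, beside 10.8% and 8.56% of all genes. The median log2 ratio was 0.48. None of the 9 lay outside its like-level range, but these ranges were all wider than that of Flt1. Tek, with a higher log2 ratio than Flt1, 1.12, lay inside a range of −1.63 to 1.84. Esam, at 0.69, lay inside −0.69 to 0.98. Whether these markers differ as Flt1 does was not tested. Their summed level was 61.4 and 84.9 RPM, a ratio of 1.38 beside 1.82 for Flt1. Esam, a junction protein and the endothelial marker of highest level per length, had 286 and 428 reads. By any amount, 6 of the 9 were higher in the anti-miR library and 3 lower. Tek had 56 and 114 reads (1.12), Icam2 64 and 105 (0.81), Erg 269 and 348 (0.48) and Egfl7 71 and 89 (0.43). Lower were Tie1, with 158 and 120 reads (−0.28), and Vwf, von Willebrand factor, with 47 and 3 (−3.33). These genes were chosen after their values were seen. Pecam1 had 0 and 50 reads, Plvap 33 and 0, and Cldn5, Emcn and Robo4 had 0 in both, while Cdh5, the cadherin of endothelial junctions, had 0 and 1. Macrophages, which can also carry Flt1, had 0 of 10 markers past 1.5-fold, beside 19.4% of all genes in either direction, and a median of −0.05. The like-level ranges of all 10 lay within 1.5-fold, so few genes of such levels pass it. By the like-level ranges 3 of these 10 lay outside, Lyz2 above at 0.42 and C1qa (−0.57) and Aif1 (−0.42) below, beside 5.26% of all genes; Aif1 was chosen after its value was seen. The part of either cell type in the Flt1 difference was not tested.

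Markers of the other cell types stand beside the ligand and neuropilin values, and their part in those was not tested. Fibroblast markers had 0 of 10 past 1.5-fold, beside 19.4% of all genes in either direction. Their median was 0.03, with Col1a1 at 0.03 and Ddr2 lowest at −0.19. Dcn was highest at 0.56, above its like-level range of −0.53 to 0.49. Pericyte and smooth muscle markers had 0 of 7 past 1.5-fold, beside the same 19.4%. Their median was −0.06, with Tagln at 0.01, Notch3 highest at 0.11 and Cspg4 lowest at −0.33. Of 7 cardiomyocyte markers, 2 passed 1.5-fold upward and 1 downward, beside 10.8% and 8.56% of all genes. Their median was 0.21, with Tnnt2 at 0.13, Myh7 highest at 0.89 and Myl2 lowest at −2.17. Myh6 had 0 and 23 reads and Ryr2 0 and 20.

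Components that relay VEGF receptor signals inside the cell mostly differed by less than 1.5-fold. Of 30 genes 25 lay above the floor, and 2 of those passed 1.5-fold, beside 19.4% of all genes in either direction. These were the adaptor Nck2, upward at 0.73, and the Src family kinase Yes1, downward at −0.93. The median was 0.05. Plcg1, the phospholipase that VEGF receptors activate, had 160 and 168 RPM (chosen after its value was seen), and Cdc42, the member of highest level per length, stood at 0.03. Nos3, the endothelial nitric oxide synthase, had 0 reads in both libraries, which allows up to 0.187 and 0.202 RPM.

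Genes that VEGF induces in endothelium lay lower as a list. Among 12 measured above the floor, 6 passed 1.5-fold downward and 1 upward, beside 8.56% and 10.8% of all genes. The median was −0.51 beside 0.03 over all genes. Esm1, an endothelial proteoglycan, was lowest, with 56 and 9 reads. Its log2 ratio was −2.34 and fell within a like-level range of −2.91 to 5.25. Adamts1, the member of highest level per length, stood at −0.17, Nr4a3 was highest at 0.66, and Apln, encoding apelin, had 0 and 21 reads. The 4 members below their like-level ranges were Nr4a1 (−1.12), Nr4a2 (−2.17), Plaur (−1.53) and Rcan1 (−0.68), chosen after their values were seen. Of all genes above the floor, 5.26% lay outside theirs in either direction. Nr4a genes and Rcan1 also respond to many other stimuli, and Nr4a1 and Rcan1 were known to be lower here when lists were drawn up, so the count is not independent evidence.

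The other ligands and partners of the neuropilins differed gene by gene. Among 9 semaphorin and plexin genes over the floor, 2 passed 1.5-fold upward and 0 downward, beside 10.8% and 8.56% of all genes. Their median was −0.22. Sema3a, the repulsive guidance cue that binds Nrp1, had 13 and 92 reads, or 7.66-fold more on the RPM scale (4.26 to 14.9). The log2 ratio of 2.79 exceeded the like-level range of −2.06 to 2.26. Sema3e, a ligand of Plxnd1, was lowest at −0.38, and Sema3c was highest in level per length, with 144 and 156 RPM. Sema3g had 31 and 0 reads. Plxnd1, chosen after its value was seen, had 251 and 459 reads and a log2 ratio of 0.98, just above its range of −0.69 to 0.96.

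**Figure D5:**
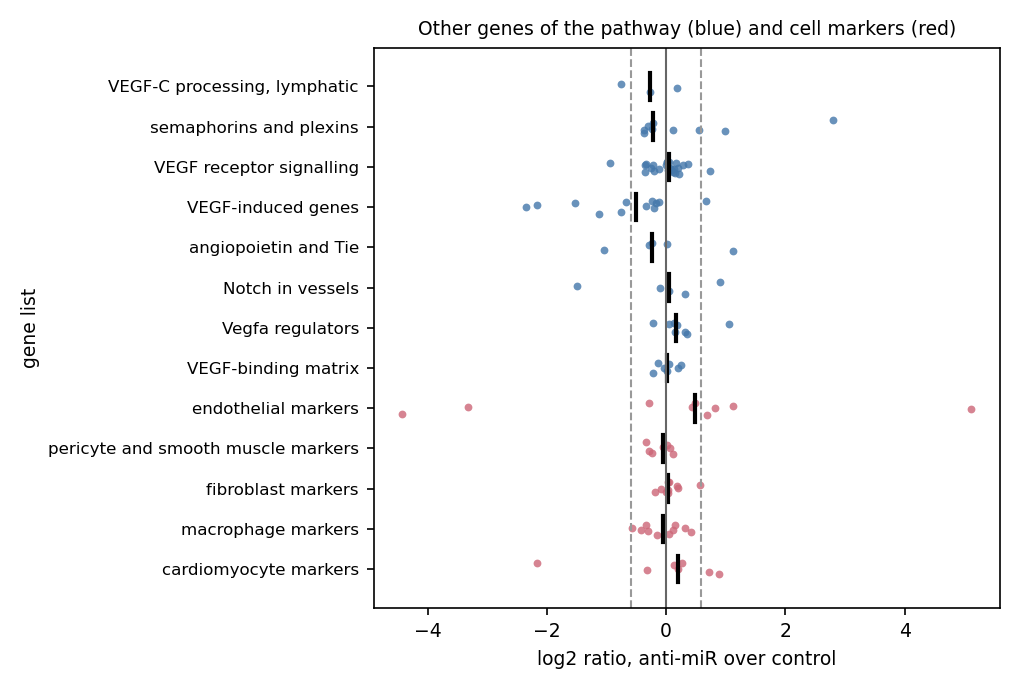
Log2 ratio, anti-miR over control, of each gene above the floor (points) in lists of other pathway genes (blue) and cell markers (red), with each list's median (black) and 1.5-fold (dashed). VEGF-induced genes have the lowest median, −0.51, and endothelial markers the highest, 0.48, over the widest spread.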

How the data were processed

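Poly(A) RNA of 1 control and 1 anti-miR culture was measured. Per the file headers, the authors counted reads with HOMER over exons of RefSeq transcripts of rat build rn4, strand-specifically (reads antisense to the gene), keeping 1 transcript for each gene; STAR 2.2.0c and CASAVA 1.8.2 are named per the submitters' processing notes. What was deposited is a signal scaled to equal column totals, by a step not given in the sources used. Whole reads were recovered by dividing by what 1 read is worth (control 0.962, anti-miR 1.04); 100% of values up to 400 reads were whole within 0.005. Per the file headers, each gene's length is that of the other deposited column, in bases, and served for RPKM. Isoforms were not separated, and 0 other genes of the table overlapped a member.

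A pseudocount of 0.1 was added to each RPM before log2 ratios (anti-miR over control) were taken, which understates differences of low genes; the floor was a mean of 1 RPM. Intervals of ratios are exact Clopper-Pearson and those of levels exact Poisson, at 95%; without molecular identifiers, reads may not be independent molecules. No test between conditions was possible with 1 library in each group. The exact binomial test on reads, added after the data were seen, called 6361 of 11630 genes with reads. Python 3.11.15, scipy 1.17.1 and pandas 2.3.3 were used, and the steps were tested on simulated data.

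Members and lists were chosen with earlier results of these data known. All members are named; of each other list, the highest and lowest ratio above the floor, the highest level per length, and genes with 0 reads in 1 library and 20 or more in the other. Some named genes, among them Pdgfra, Tnni3, Nos3 and Dll4, fall outside this rule. Promoters were matched by symbol for all 9 measured members. Alternatives were the pseudocount, the scaling, the floor, the fold rule and TPM in place of RPKM.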

Additional observations from a re-analysis of the deposited data

How the results depend on the processing

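No paired analysis was possible because each group has 1 library. Over 5 alternatives (pseudocounts of 0.01 and 1, and scaling by the median ratio, by the 75th percentile or without the 20 most abundant genes), all 45 log2 ratios of single members stayed inside the member's counting interval, 0 changed sign, and the largest shift was 0.04. The scalings moved the median of all genes by 0.01 to 0.03. The count of members at least 1.5-fold higher stayed at 2 under these and both floors, and was 0 at a fold of 2. The count at least 1.5-fold lower, 0 as reported, was 1 under scaling by the median ratio, 1 under the 75th percentile and 1 without the 20 most abundant genes; the member is Vegfb, whose ratio lies next to the rule. The summed RPKM ratio of 0.9501 was 0.957 in TPM. Over the 8 pathway lists pooled, 7 of 73 genes above the floor were higher and 10 lower at 1.5-fold, beside 10.8% and 8.56% of all genes, and 6 of the 10 were VEGF-induced genes, a list that is not independent; with a floor of 10 RPM, which leaves fewer genes, 3 were higher and 3 lower. Depth limits Flt4 most, with 78 and 90 reads.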

Other observations

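Other genes around the VEGF family differed in both directions between the libraries, some of them by more than 2-fold. No gene above the floor in the lists of this section lay outside its like-level range, beside 5.26% of all genes. Of the Vegfa regulators above the floor, 7 were higher by any amount and 1 lower, around a median of 0.17, beside 0.03 over all genes. Among 8 regulators of Vegfa above the floor, 1 was at least 1.5-fold higher, the HIF prolyl hydroxylase Egln3 (62 and 121 reads, log2 ratio 1.06), and 0 were lower. Over all genes the shares were 10.8% upward and 8.56% downward. Vhl, part of the ligase that destroys HIF proteins, was lowest at −0.22, and Stat3, highest in level per length, stood at 0.14. In the angiopoietin and Tie group of 5 genes, the receptor gene Tek was highest (56 and 114 reads, 1.12) and Angptl4 lowest (171 and 76 reads, −1.04). Angpt2, an antagonist of Tek signalling and the most abundant of the group per length, stood at −0.24.

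Of 5 vascular Notch genes above the floor, Hes1 was highest at 0.90 and Notch4 lowest at −1.50, with 55 and 17 reads, while the ligand gene Jag1, highest in level per length, stood at 0.05. Dll4, the ligand that VEGF induces in tip cells, had 0 reads in both libraries. Carriers and matrix proteins that bind VEGF had 0 of 7 genes past 1.5-fold, beside 19.4% of all genes in either direction. The like-level ranges of all 7 lay within 1.5-fold, so few genes of such levels pass it. Their median was 0.02, with Sdc3 highest at 0.25, Sdc4 lowest at −0.22 and Sparc, highest in level per length, at 0.04. Of the VEGF-C processing and lymphatic list 3 of 8 genes lay above the floor. Adamts3, the protease that activates VEGF-C, was lowest with 69 and 37 reads (−0.76), and Pdpn, podoplanin, was highest in ratio and level at 0.19. The lymphatic marker Lyve1 and the lymphatic factor Prox1, both below the floor and chosen after their values were seen, had 13 and 16 and 10 and 20 reads.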
